A study of Mus musculus with 16 samples.

Results

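Photoreceptors carry a modified primary cilium, and 9 mouse genes that serve it or are mutated in Usher disease were examined for peaks of the transcription factors Foxn3, Foxn4 and Rfx3 in embryonic retina. The genes were taken from a given list (Rpgr, Rpgrip1, Spata7, Iqcb1, Rp1, Lca5, Tulp1, Cdh23 and Pcdh15) and are 9 of the 21887 protein-coding genes annotated on the autosomes and sex chromosomes of the mm10 build. A peak was assigned to a gene when its midpoint lay inside the gene or no more than 10 kb beyond either end, and it was called an end peak when that midpoint was no more than 1 kb from an annotated end. The data came from CUT&RUN, in which an antibody directs micrococcal nuclease to a protein in live cells and the DNA cut free next to it is sequenced. Pooled retinas of CD-1 mice, an outbred strain, at embryonic day 16 were dissociated, with about 300000 cells per assay. There were 4 libraries with an antibody to Foxn3, 2 with an antibody to Foxn4 and 2 with an antibody to Rfx3, beside 6 rabbit and 2 mouse IgG control libraries. The labels of the rabbit IgG controls name a Foxn3 experiment 1 and a Foxn3 experiment 2, with separate control libraries. Nuclease digestion lasted 1 h, except in the Foxn4 and mouse IgG assays, where it lasted about 12 h, so the Foxn4 antibody and its digestion time cannot be told apart.

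The deposited data were 1 peak list per antibody, of 2794 Foxn3, 2956 Foxn4 and 3981 Rfx3 peaks. Which libraries entered a list and how IgG was used are not given in the sources used here, and values of single libraries and of the IgG controls were not analysed here. The read depth behind a peak is therefore unknown, no value below has a spread between replicates, and no test was made. Each peak has a signal set by the authors, with no stated scale, which was used only to rank peaks inside a list. Absence from a list means that no peak passed the authors' threshold, which is not stated. Peak lists hold no expression values, so the retinal identity of the cells and the activity of the genes were not examined.

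The outer segment of a photoreceptor, the stack of discs that holds the visual pigment, is joined to the cell body by the connecting cilium, a long transition zone through which all its proteins must pass. RPGR, a guanine nucleotide exchange factor-like protein, is held there by RPGRIP1 together with SPATA7 and other partners, and loss of these proteins causes retinitis pigmentosa or Leber congenital amaurosis. Usher disease joins hearing loss with retinal degeneration, and the Usher cadherins CDH23 and PCDH15 form the tip links of the hair bundle in the inner ear. RFX factors bind the X-box, an inverted repeat, upstream of many ciliary genes. Foxn3 and Foxn4 are forkhead factors, and proteins of the Foxn family have been found to bind the forkhead motif and an alternative motif called FHL.

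Peaks of any factor were found at 5 of the 9 genes: Rpgr, Rpgrip1, Spata7, Lca5 and Iqcb1. Over all protein-coding genes 23.9% had such a peak. There were 11 peaks in all, 5 of Foxn3, 2 of Foxn4 and 4 of Rfx3, and they formed 5 regions, 1 per gene. Foxn3 and Rfx3 without Foxn4 marked the start of Rpgr, Lca5 and Spata7. Foxn3 and Foxn4 without Rfx3 marked the outermost end of Rpgrip1, next to the start of another gene. All 3 factors marked a site just beyond the far end of Iqcb1, at the facing ends of 2 other genes. Tulp1, Rp1, Cdh23 and Pcdh15 had no peak of any list.

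The promoters of the 3 genes with a Foxn3 and an Rfx3 peak at their start are printed here because those peaks overlap them. Each peak covers only the part of the printed 250 bases nearest the start. The promoter of Iqcb1, which has no peak, is printed for contrast. The sequences are from RefSeq on GRCm38.p6, the assembly of mm10, read along the gene and ending at the base before the tabulated transcription start (250 bases each). Capitals mark exact matches to the motifs described after the sequences and, in Rpgr, a partial X-box with 10 of 14 letters; partial matches with 9 letters are left in lower case. For Lca5 and Spata7 a second stretch of 30 bases, from position 21 to position 50 counted from 1 at the start, is shown because it holds an RFX half-site.
Rpgr, minus strand, chrX:10216796-10217045: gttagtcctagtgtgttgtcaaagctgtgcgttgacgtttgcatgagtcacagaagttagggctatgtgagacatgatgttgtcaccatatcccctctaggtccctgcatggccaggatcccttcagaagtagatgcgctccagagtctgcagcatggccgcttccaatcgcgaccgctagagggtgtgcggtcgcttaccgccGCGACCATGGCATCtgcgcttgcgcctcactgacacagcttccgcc
Lca5, minus strand, chr9:83441128-83441377: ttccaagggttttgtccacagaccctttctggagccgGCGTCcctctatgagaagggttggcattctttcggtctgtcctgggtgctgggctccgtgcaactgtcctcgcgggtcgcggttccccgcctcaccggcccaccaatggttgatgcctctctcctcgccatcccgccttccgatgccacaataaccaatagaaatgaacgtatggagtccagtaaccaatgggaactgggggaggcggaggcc
Lca5, after the start, chr9:83441078-83441107: tgggcttctgctccGTTGCCcaggagccga
Spata7, plus strand, chr12:98627892-98628141: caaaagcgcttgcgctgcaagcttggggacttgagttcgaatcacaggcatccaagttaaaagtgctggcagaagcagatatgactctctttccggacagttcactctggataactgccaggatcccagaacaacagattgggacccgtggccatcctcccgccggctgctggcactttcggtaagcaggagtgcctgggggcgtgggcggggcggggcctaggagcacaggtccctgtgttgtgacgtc
Spata7, after the start, chr12:98628162-98628191: tcgcccttAGCAACcgccctggcgactgtc
Iqcb1, plus strand, chr16:36828150-36828399: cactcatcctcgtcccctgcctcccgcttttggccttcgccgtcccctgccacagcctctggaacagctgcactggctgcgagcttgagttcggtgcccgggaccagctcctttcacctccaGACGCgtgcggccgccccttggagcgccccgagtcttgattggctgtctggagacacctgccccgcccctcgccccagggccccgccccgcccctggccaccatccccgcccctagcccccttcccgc

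The motifs were searched on both strands in windows of 300 bases, from 250 bases before to 50 bases after each of 32817 tabulated starts. They were the X-box, made of GTTNCC and its reverse complement joined by AT, the RFX half-sites GTTGCC and GTTACC, the forkhead motif GTAAACA and the FHL motif GACGC. The half-site GTTGCT and the best partial match to the X-box of 14 letters with G in place of the N were added after the sequences had been seen. GTTGCC and GTTACC are parts of the X-box, so these searches overlap. Of the 9 genes, 8 had a tabulated start, with 10 windows between them. A match describes letters and is not shown to be a bound site.

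None of the 10 windows held the full X-box, which 0.128% of all windows held, and none held GTAAACA, which 3.65% of all windows held. The Rpgr window held the closest partial X-box, GCGACCATGGCATC with 10 of 14 letters matching, 46 bases before its outer start, and 12.2% of all windows held a match at least as close. In Lca5 the half-site GTTGCC, present in 12.5% of windows, began at position 35 after the outer start. In Spata7 the reverse strand held GTTGCT, present in 14.8% of windows, at position 29 after the start. Any of the 3 half-sites occurred in 30.3% of all windows and in 48.8% of those overlapped by an Rfx3 peak, and in 2 of the 8 genes, a share near that of all windows. These stretches of Rpgr, Lca5 and Spata7, which are not the same motif, lay 37 bp, 18 bp and 5 bp from the midpoint of the Rfx3 peak of their gene and inside both peaks. Other matches lay farther away: the best partial X-box, with 9 of 14 letters in each gene, was 84 bp from the Rfx3 midpoint in Lca5 and 148 bp from it in Spata7, where neither peak covered it. A match of 9 letters or more occurred in 48% of all windows. Whether these distances differ from those of other promoters was not tested. The FHL motif GACGC was present in 27.2% of all windows. Among windows overlapped by a Foxn3, Foxn4 or Rfx3 peak, 56.5%, 55.7% and 53.7% held GACGC, and 2.14%, 1.43% and 1.96% held GTAAACA. The part of GC content in these shares was not tested. In Lca5 GACGC occurred 213 bases before the outer start, inside the Foxn3 peak and outside the Rfx3 peak. It also occurred at 3 places in the Iqcb1 window, where no list has a peak. In the windows of Rpgrip1, Tulp1, Cdh23 and Pcdh15 none of these letters were found, and their closest partial X-box had 8 of 14 letters.

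GC content moved with the presence of a peak over all promoters. It had a median of 52.7% over all windows, against 61.3% in the 1960 windows overlapped by a Foxn3 peak, 61.7% in the 2443 overlapped by an Rfx3 peak and 62.3% in the 1046 overlapped by a Foxn4 peak. The windows of Spata7 (59.3%), of Lca5 (61% and 64.7%) and of Rpgr (58.7% and 67.7%) lay above the median of all windows, and so did those of Iqcb1 (71%), Tulp1 (57.3%) and Cdh23 (54%), which have no peak. The windows of Rpgrip1 (42.7%) and Pcdh15 (50.7%), also without a peak, lay below that median. Matches of at least 10 letters to the X-box occurred in 31.9% of windows overlapped by an Rfx3 peak and in 31% of those overlapped by a Foxn3 peak, against 15.4% for Foxn4. The part of GC content in these shares was not tested.

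**Figure D1:**
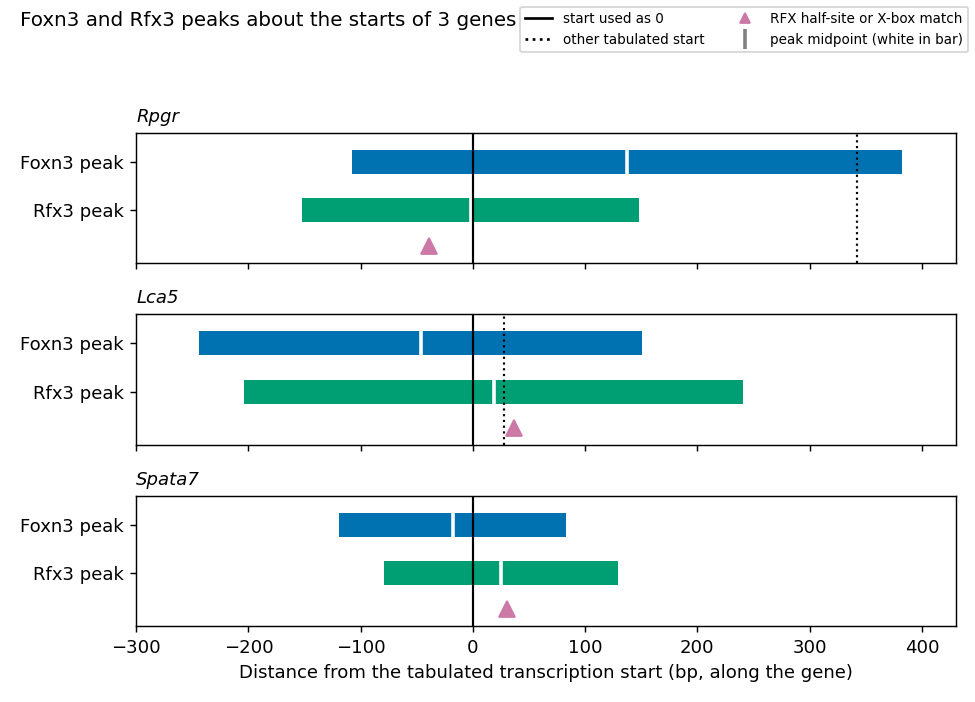
Position of the Foxn3 (blue) and Rfx3 (green) peaks at Rpgr, Lca5 and Spata7, as distance in bp along each gene from the tabulated transcription start; solid and dotted vertical lines are tabulated starts, white marks are peak midpoints and triangles are the RFX half-site or partial X-box. Both peaks cover the start used as 0 in each gene, and the Foxn3 peak of Rpgr also covers a second start 342 bp into the gene.

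Rpgr, which encodes the X-linked retinitis pigmentosa protein of the connecting cilium, occupies chrX:10158216-10216795 on the minus strand. Its Foxn3 peak spanned chrX:10216413-10216903 (491 bp) and had a signal of 65.4, above 77.6% of the Foxn3 list. Its Rfx3 peak spanned chrX:10216647-10216947 (301 bp) and had a signal of 47, above 28.5% of the Rfx3 list. Rpgr therefore ranked in the upper part of one list and in the lower part of the other. The Rfx3 midpoint lay 2 bp from the outer start, and the Foxn3 midpoint lay 137 bp inside the gene. The midpoints were 139 bp apart, against a median of 46 bp (quartiles 21 and 90 bp) over the 2265 Foxn3 peaks of the genome that overlapped an Rfx3 peak. The Foxn3 peak covered both tabulated starts of Rpgr, which are 342 bp apart, and the Rfx3 peak only the outer one. No other gene had an end within 1 kb of either midpoint or held it in its body. The nearest Foxn4 peak was 309 kb from the gene.

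Spata7, a connecting cilium protein that binds RPGRIP1, lies at chr12:98628129-98669819 on the plus strand. A Foxn3 peak at chr12:98628023-98628225 had a signal of 19.6, above 26.7% of that list, and the Rfx3 peak, at chr12:98628063-98628271 had a signal of 124, above 67.2% of its list. Here the order was the opposite of that at Rpgr, with the Rfx3 peak in the upper and the Foxn3 peak in the lower part. Both peaks were narrow, 203 bp and 209 bp, wider than only 3.11% of Foxn3 and 1.06% of Rfx3 peaks. Their midpoints lay 43 bp apart, on either side of the tabulated start, 18 bp before it for Foxn3 and 25 bp after it for Rfx3. Spata7 shared these peaks with no other gene, and the nearest Foxn4 peak was 551 kb away.

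Lca5, which encodes lebercilin, a ciliary protein that associates with intraflagellar transport, lies at chr9:83391355-83442994 on the minus strand. Its Foxn3 peak at chr9:83440976-83441371 had a signal of 17.8, above 22.2% of the list, and its Rfx3 peak at chr9:83440886-83441331 had a signal of 62, above 40.9%. Both were below the middle of their lists. The annotated end of Lca5 lay 1821 bp from the Foxn3 and 1886 bp from the Rfx3 midpoint, so neither counted as an end peak. The tabulated starts of Lca5 lie 28 bp apart and 1.87 kb inside that end, and both peaks covered both of them, with midpoints 46 bp and 9 bp from the nearest start. At Lca5 the annotated end and the tabulated starts thus gave different calls. The non-coding gene Gm2087 spans the site as well, but its nearest end was over 9 kb away (9626 bp and 9561 bp).

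Rpgrip1, whose protein anchors RPGR in the connecting cilium, lies at chr14:52104241-52161339 on the plus strand. A Foxn3 peak at chr14:52103956-52104571 had a signal of 25.2, above 39.7% of its list, and a Foxn4 peak at chr14:52104074-52104498, wholly inside it, had a signal of 7.11, the median of its list, with 44.1% of the list lower. No Rfx3 peak was listed closer than 93.5 kb. The midpoints lay 22 bp and 45 bp from the annotated end of Rpgrip1 but 6640 bp and 6617 bp before its tabulated start. Hnrnpc, which encodes an RNA-binding protein of nuclear ribonucleoprotein particles, ends 202 bp from Rpgrip1 at chr14:52073377-52104039. The midpoints were 242 bp and 265 bp from the tabulated start of Hnrnpc, so the bound gene cannot be told apart from position alone, and the Hnrnpc start is the closer of the tabulated starts. Such sharing was common, since 40.2% of genes with a Foxn3 end peak and 38.6% of genes with a Foxn4 end peak shared it with another protein-coding gene.

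Iqcb1, a nephrocystin that binds CEP290 at the base of the cilium, lies at chr16:36828360-36872719 on the plus strand, inside the span annotated for Eaf2 (chr16:36792884-36875068). A Foxn3 peak at chr16:36874809-36875266 had a signal of 477, rank 18 in the list of 2794. An Rfx3 peak at chr16:36874740-36875267 had a signal of 1108, rank 55 of 3981. A Foxn4 peak at chr16:36874869-36875152 had a signal of 12.4, above 89.1% of its list. By signal this site ranked highest of the 5 regions in all 3 lists. By width it ranked highest only for Rfx3, with a peak wider than 60.9% of that list, against 45% for Lca5, the next. Its Foxn3 peak was wider than 69% of the list, against 89.4% for Rpgrip1 and 75.3% for Rpgr. Its Foxn4 peak was wider than 25.5%, against 72.8% for Rpgrip1. The site was, however, 2.28 to 2.32 kb beyond the far end of Iqcb1 and 46.6 kb from its start. It sat where Eaf2, a transcription elongation cofactor, and Golgb1, which encodes the Golgi protein giantin (chr16:36875093-36933085), face each other 25 bp apart, with midpoints 31 to 65 bp from the Eaf2 end and 56 to 90 bp from the Golgb1 end. The midpoints lay 177 to 211 bp from a tabulated start of Eaf2, which the Foxn3 and Rfx3 peaks covered and the Foxn4 peak did not. Golgb1 has no tabulated start. The start of Iqcb1 itself, 141 bp from another tabulated start of Eaf2, had no peak of any list.

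**Figure D2:**
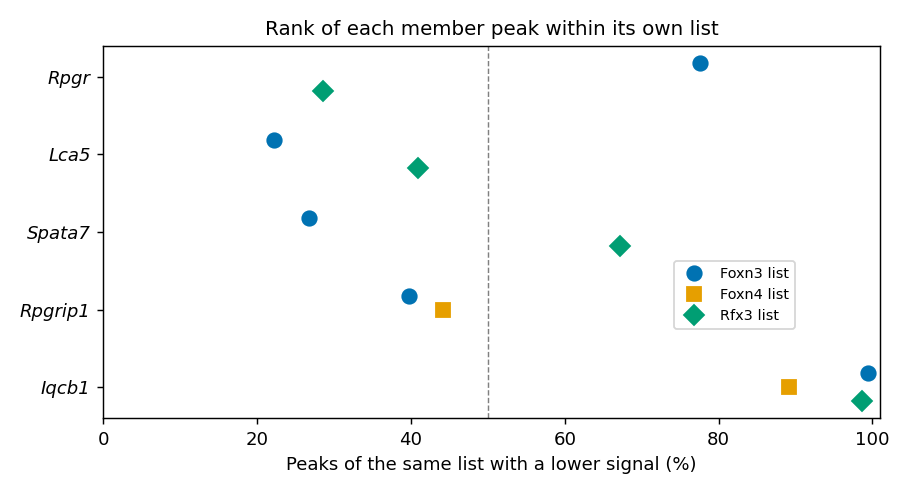
Share of the peaks of the same list with a lower signal (in %, horizontal axis) for each of the 11 peaks at 5 genes; circles are Foxn3, squares Foxn4 and diamonds Rfx3, and the dashed line marks the middle of a list. Peaks at Iqcb1 rank from 89.1% to 99.4%, while the peaks at Lca5 lie below the middle; the Foxn4 peak at Rpgrip1, drawn at 44.1%, has the median signal of its list.

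All 11 peaks overlapped a peak of another list. Over the genome this held for 89.5% of Foxn3, 44% of Foxn4 and 60.8% of Rfx3 peaks. Of the 5 regions, 3 held Foxn3 and Rfx3 without Foxn4, a class that made up 22.1% of all 6155 merged regions, 1 held every factor (14.2%) and 1 held Foxn3 and Foxn4 (3.83%). Regions of a single factor, frequent in the genome for Foxn4 (26.9%) and Rfx3 (25.3%), were not seen at these genes.

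Counted by gene, Foxn3 had an end peak at 3 of 9 genes (Rpgr, Rpgrip1 and Spata7), where 8.82% of all protein-coding genes had one. Rfx3 had an end peak at 2 of 9 (Rpgr and Spata7; 10.6% of all genes) and Foxn4 at 1 of 9 (Rpgrip1; 4.84%). Foxn3 and Rfx3 both had one at 2 of 9 genes, against 7.56% of all genes. With distances taken to tabulated starts in place of gene ends, an alternative chosen after seeing the data, Foxn3 and Rfx3 each had a peak within 1 kb at the same 3 of 8 genes, Rpgr, Lca5 and Spata7. The background was then 9.67% for Foxn3, 11.6% for Rfx3 and 8.3% for both. Foxn4 had none of 8, against 5.29%. In the wider window, Foxn3 had a peak at 5 of 9 genes (15.2% of all genes), Rfx3 at 4 (19%) and Foxn4 at 2 (10.5%). With 9 genes, 1 gene more or less moves each of these shares a great deal, and the genes were chosen with earlier results of these data known.

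Rp1, a microtubule-binding protein of the outer segment axoneme, lies at chr1:4115673-4409266. The nearest Foxn4 peak was 2326 kb away, and the nearest Foxn3 and Rfx3 peaks 5600 kb away, beside Ppp1r42. Tulp1, a tubby-family protein needed for transport to the outer segment, lies at chr17:28351515-28365216. Its nearest Rfx3 peak was 38 kb away at an end of Fance, and its nearest Foxn3 and Foxn4 peaks were 121 kb away at an end of Fkbp5. All of these sites lay outside the window of Rp1 or Tulp1.

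The 2 Usher cadherins are long genes. Cdh23 spans 394 kb (chr10:60302748-60696513) and Pcdh15 1554 kb (chr10:73096277-74649831). Foxn3 and Rfx3 peaks that overlap each other lay 16.9 kb and 16.8 kb beyond the far end of Cdh23, and the gene end nearest to them was that of Psap, which encodes a precursor of lysosomal activator proteins. They ranked above 79.3% and 85.3% of their lists. Around Pcdh15 the closest peaks, of Foxn3 and Rfx3, were 317 kb away at Gnaz, a G-protein subunit gene. Together with Rp1 the cadherins make up 2.3 of the 2.69 Mb examined and held 0 peaks, whereas the other 6 genes held 12.9 Foxn3, 5.17 Foxn4 and 10.3 Rfx3 peaks per Mb. All 9 genes together held 1.86 Foxn3, 0.744 Foxn4 and 1.49 Rfx3 peaks per Mb. The windows of all protein-coding genes held 1.87, 1.55 and 2.6 peaks per Mb, a background not matched in length to the 6 genes. Among the 580 genes at least as long as Rp1, 26.6% had a Foxn3, 36.4% a Foxn4 and 31.4% an Rfx3 peak in this window and 52.4% had a peak of any list, so genes of this length without a peak were common.

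**Figure D3:**
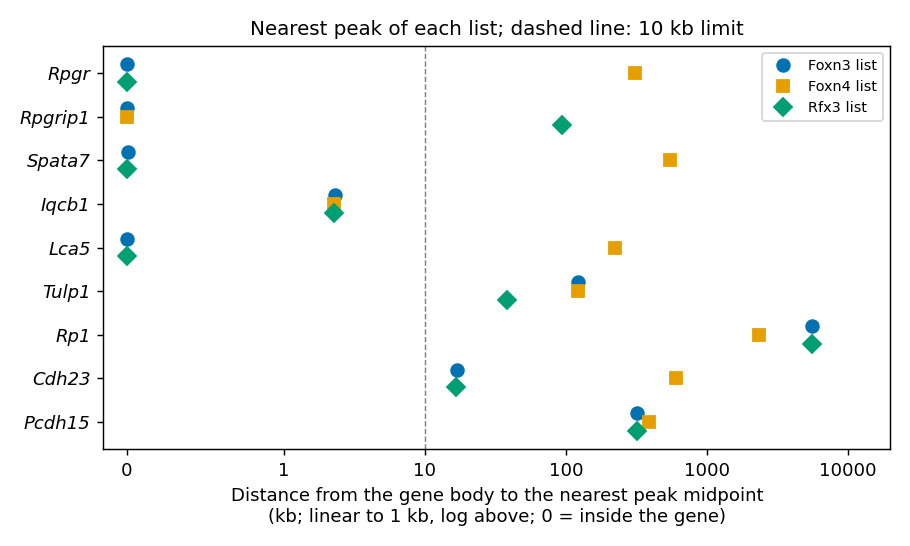
Distance in kb (linear to 1 kb and logarithmic above it) from each of the 9 genes to the nearest peak midpoint of the Foxn3 (circles), Foxn4 (squares) and Rfx3 (diamonds) lists, where 0 is inside the gene and the dashed line is the 10 kb limit. Cdh23 lies just outside the limit for Foxn3 and Rfx3, and Rp1 is farthest from any peak.

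To place the 9 genes among their partners, 58 genes of the photoreceptor cilium and outer segment were arranged by role in 5 lists that include them. In the list of RPGR and connecting cilium partners, 9 of 13 genes had a Foxn3 end peak, 8 an Rfx3 end peak and 2 a Foxn4 end peak. All 8 genes with Rfx3 also had Foxn3, as did 71% of the 2329 protein-coding genes with an Rfx3 end peak. Beside Rpgr and Spata7 they included Rpgrip1l, Nphp4 and Cep290, which build the transition zone, Ahi1, a Joubert syndrome gene, and Sdccag8, a centrosomal gene. At Cep290 the Foxn3 peak (chr10:100487284-100487669) ranked above 65% of its list and the Rfx3 peak (chr10:100487283-100487714) above 77.1%. At Nphp4 the Foxn3 peak (chr4:152477449-152477742) ranked above 74.3% and the Rfx3 peak (chr4:152477240-152477872) above 72.2%. Tmtc3 also has an end within 1 kb of the Cep290 peaks, Kcnab2 of the Nphp4 peaks and Fto of the Rpgrip1l peaks, so the bound gene is uncertain at these sites. By tabulated starts the list had 6 genes with Foxn3 and 6 with Rfx3. Pde6d, Rp2 and Cc2d2a had no peak in the window of any list.

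Among 12 protein-traffic genes, 7 had a Foxn3 and 8 an Rfx3 end peak, and 1 a Foxn4 end peak. The 2 that belong to the 9 genes, Lca5 and Tulp1, had none of these. Tulp3, a tubby-family relative of Tulp1 that carries receptors into cilia, had a Foxn3 peak at chr6:128355680-128356004 (above 77.7% of that list). The Rfx3 peak of Tulp3 spanned chr6:128355779-128356053 (above 74.1%). Tub, the founding member of that family, had no end peak. By tabulated starts 8 traffic genes had Foxn3 and 9 had Rfx3, Lca5 among them in both. Of the 2 genes with an end peak in every list, where 3.06% of all genes have one, Ift140, an intraflagellar transport gene, shared its peaks with Cramp1l, and Sdccag8 shared its own with Cep170.

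Among 12 axoneme and microtubule genes, Rp1 among them, 3 had a Foxn3 and 4 an Rfx3 end peak and none a Foxn4 end peak. Kiz and Ttll5 had both, Mak and Kif17 had Rfx3 alone and Poc5 had Foxn3 alone. Rp1l1, the closest relative of Rp1, had no peak in its window. Erg28 shares the peaks of Ttll5. By tabulated starts the count was 5 genes with Foxn3, 6 with Rfx3 and 1 with Foxn4, where the background is 9.67%, 11.6% and 5.29%. Fam161a was counted for all 3 factors, and Kif3a for Foxn3 and Rfx3.

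The Usher list, with Cdh23 and Pcdh15 among 11 genes, had no end peak of Foxn3 or Foxn4 and a single one of Rfx3. That peak was at Whrn, the gene of the scaffold protein whirlin (chr4:63495994-63496391, above 60.9% of the Rfx3 list). Of 10 genes for outer-segment discs and phototransduction, Prph2 and Gnat1 among them, none had an end peak in any list, and Rd3 alone had peaks in its window, 2 of Rfx3, with at least 1 within 1 kb of a tabulated start. These counts describe lists written with earlier results of these data known, and they were not tested.

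**Figure D4:**
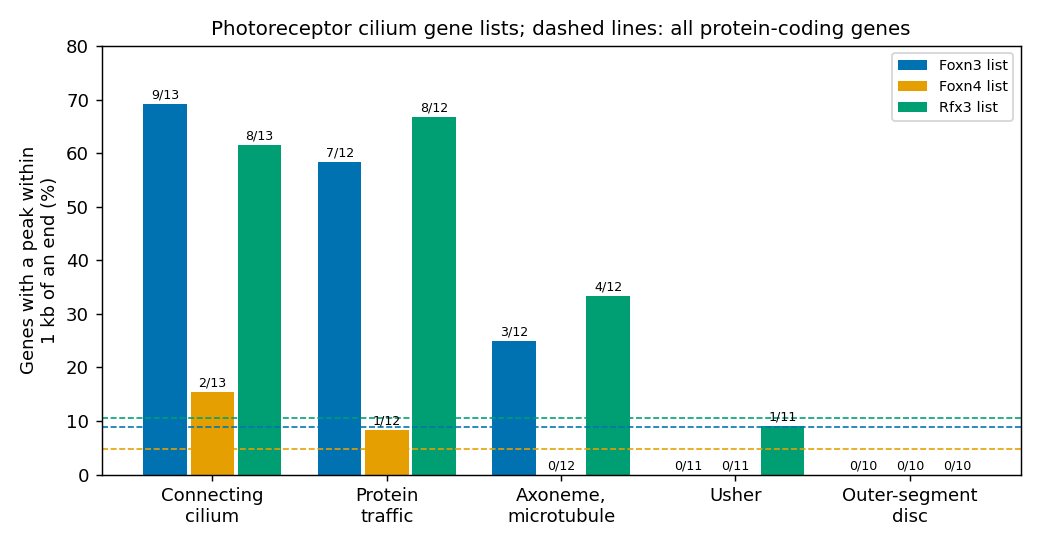
Percent of the genes of 5 lists with a peak midpoint within 1 kb of an annotated end, for the Foxn3 (blue), Foxn4 (orange) and Rfx3 (green) lists, with the number of genes above each bar; dashed lines give the share over all protein-coding genes (8.82%, 4.84% and 10.6%). The connecting cilium, protein-traffic and axoneme lists stand above those lines for Foxn3 and Rfx3, and the Rfx3 share of the Usher list (1 of 11) is near its line. Foxn4 stands above its line in the first 2 with 2 and 1 genes. These Foxn4 peaks, at Rpgrip1, Sdccag8 and Ift140, each lie within 1 kb of another gene's end, and by tabulated starts the connecting cilium list has 0 genes with Foxn4.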

How the data were processed

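The authors deposited 1 peak list per antibody on mm10, per the file headers, with a signal value for each peak whose scale is not stated. Cutadapt, Bowtie2, UMI-tools, bedtools and SEACR are named in the submitters' processing notes; versions, thresholds, pooling and use of IgG are not given in the sources used here. Coordinates were converted to count from 1. Peaks were placed by midpoint against RefSeq gene spans of GRCm38.p6, which carry no exons, so positions in exons or introns were not determined. Start sites came from a RefSeq promoter table that covers 17492 of 21887 protein-coding genes. Peaks were shared when they overlapped by at least 1 bp. All results are descriptions without a test. The code was checked on made-up intervals with known answers, and run with Python 3.11.15 and pandas 2.3.3. The genes and lists were chosen with earlier results of these data known. Genes named were the 9, those sharing their peaks, and listed genes with an end peak in all 3 peak lists (at most 12, in alphabetical order); other listed genes were named after their values were seen. Alternatives varied the distances, the placement of peaks, the peak threshold, the background and the ranking. Some genes counted in the lists are not reported here by name.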

Additional observations from a re-analysis of the deposited data

How the results depend on the processing

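Each antibody has 1 deposited list, so no library could be left out. No paired analysis was possible because the lists carry no replicates. Keeping only peaks whose signal reached their list's median left 2 Foxn3 and 2 Rfx3 peaks at the 9 genes, an end peak at 1 gene for each of these factors, and 3 peaks that overlapped another list. The end peak left was at Rpgr for Foxn3 and at Spata7 for Rfx3. None of Rpgr, Lca5 and Spata7 kept both a Foxn3 and an Rfx3 peak. Counting gene bodies alone left 3 Foxn3, 1 Foxn4 and 2 Rfx3 peaks. Distances to tabulated starts left 0 genes for Foxn4. The background share fell to 4.65%, 2.68% and 5.68% for Foxn3, Foxn4 and Rfx3 when all annotated genes were counted, and the share with a peak in the wider window was 26.6%, 36.4% and 31.4% among genes at least as long as Rp1. The other 38 alternative values of these counts and shares stayed within 1.5 times. Ranking by width moved all 11 ranks and ranking among gene-end peaks moved 10 of 11 beyond their 95% Wilson interval. Each rank was taken over a complete list, so this interval follows from rank and list length and measures no spread between replicates. Read depth is unknown, so what depth limits could not be assessed.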
